A study of Sus scrofa with 12 samples.

Results

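The spotted cDNA probes named for 5 receptors of chemokines were followed across blood mononuclear cells of Yorkshire boars of 3 SLA-DRB1 genotypes. The 5 probes were all those whose array name read CXCR4 (probe CH3), CCR4 (CH2), CCR7 (CH4), CCR8 (CH18) or MCP-1Ra (CH14), out of 188 gene probes on the array, and all 5 were among the 185 probes bright enough to be tested. CXCR4 was far brighter than both negative-control DNAs on every array, while the other 4 receptors lay close to or below them. None of the 5 differed between genotypes at an adjusted p under 0.05 in limma, where 1.08% of all tested probes did so in 050502 vs 070701, 0.00% in 050502 vs New and 1.08% in 070701 vs New. The spread of CXCR4 between hybridised pairs of boars was among the widest on the array. As labelled, and picked out after the values were seen, the CXCR4 log2 ratio lay below 0 in the pairs lettered A and above 0 in those lettered B. With the 1 hybridised pair of doubted direction turned, it no longer split in this way.

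Chemokines are small secreted proteins that form gradients, and white blood cells follow them through receptors of the cell surface that couple to G proteins. CXCR4 binds SDF-1 (CXCL12) and is carried by most circulating leukocytes, which it helps hold in bone marrow and lymphoid tissue. CCR7 brings naive T cells and mature dendritic cells into lymph nodes. In human and mouse, CCR4 and CCR8 are found on memory, type 2 helper and regulatory T cells, and receptors of MCP-1 draw monocytes out of the blood. The name MCP-1Ra reads as a receptor of MCP-1, but the files do not pair it with a gene symbol, so the array's name is kept.

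SLA-DRB1 encodes a chain of a class II molecule, which presents peptides to T cells, and its allele defined the groups: 050502, 070701, and an allele that the labels call New. Each genotype had 2 boars, so each comparison below rests on very few animals. The labels state no age, and say nothing of the boars' other SLA genes. No cells were stimulated or sorted. RNA of the mononuclear cells, amplified in 1 round, was copied into cDNA and labelled with a red or a green Alexa Fluor dye, and RNA of boars of different genotypes shared an array. Each of the 3 genotype pairs was measured on 2 hybridised pairs of boars, A and B, and each hybridised pair was run on 2 arrays with the dyes exchanged (A1 and A2, B1 and B2), giving 12 arrays. In such a bulk sample, fewer cells carrying a receptor and less receptor RNA per cell cannot be told apart.

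Over the 12 arrays, the median spot intensity ranged from 382 to 2004 in red and from 498 to 2078.5 in green, and the number of gene probes detected in a channel ranged from 53 to 186 of 188. The lowest numbers were on arrays of 050502 vs New. The direction of that comparison is not settled, because the ratios of its hybridised pairs A and B correlated across probes with r = -0.54, against 0.60 for 050502 vs 070701 and 0.64 for 070701 vs New. The dye-exchanged arrays of its pair A also correlated with each other across probes at only r = 0.19, against 0.66 to 0.85 in the other hybridised pairs. Whether pair A is swapped or poorly reproduced was not tested. The mean ratios of 050502 vs New are therefore also given with pair A turned to the opposite sign, and values of single arrays stand as labelled. Among cell markers, 3 of 14 T cell probes and 1 of 6 B cell probes were brighter than both negative-control DNAs. So were 2 of 4 monocyte and dendritic cell probes, and 48 of all 185 tested probes. Most markers of the labelled cells, like most probes of the array, were thus not measured clearly above those DNAs. Precision is limited by the number of boars and hybridised pairs.

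Each probe was printed in 8 spots per array, and its brightness was taken as the foreground intensity in the 24 channels (12 arrays, red and green). The negative controls were DNA of VapA, a gene of the bacterium Rhodococcus equi, and of the plasmid pACYC177. They averaged 1005 and 1451 intensity units (geometric means over the 24 channels). These comparisons describe the spots only, because probes can differ in the length and amount of DNA printed. Of the 185 tested probes, 48 were brighter on average than both controls, and CXCR4 was the only 1 of the 5 receptors among them.

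CXCR4, the receptor of SDF-1, had a lowest, median and highest intensity of 3525, 13534 and 41673 over the 24 channels. It averaged 12.7-fold the VapA spots and 8.83-fold the pACYC177 spots, and it was above both in 24 of 24 channels. Even its lowest channel against pACYC177 was 1.58 higher on the log2 scale, and its highest was 5.24 higher.

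CCR4, a receptor of T cells, had a lowest, median and highest intensity of 341, 1212 and 4997. It averaged 1.27-fold VapA and 0.881-fold pACYC177, above VapA in 17 channels and above pACYC177 in 7. Of those 7 channels, 6 were both colours of array B1 of 050502 vs New, array B2 of 050502 vs New and array B2 of 070701 vs New. The other was the red channel of array A2 of 050502 vs 070701. CCR4 reached 2.65-fold and 2.19-fold pACYC177 on array B2 of 050502 vs New and between 1.08-fold and 1.41-fold in the remaining 5 channels.

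CCR7, the lymph node homing receptor, had a lowest, median and highest intensity of 305, 917 and 1621, which averaged 0.859-fold VapA and 0.596-fold pACYC177. It was above VapA in 6 of 24 channels. CCR8 was dimmer still, at 310, 749 and 1337, averaging 0.753-fold VapA and 0.521-fold pACYC177, and it was above VapA in 1 channel. MCP-1Ra stood at 302, 881 and 1985, averaging 0.918-fold VapA and 0.636-fold pACYC177, and was above VapA in 6 channels. None of these 3 receptors was above pACYC177 in any of the 24 channels.

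**Figure D1:**
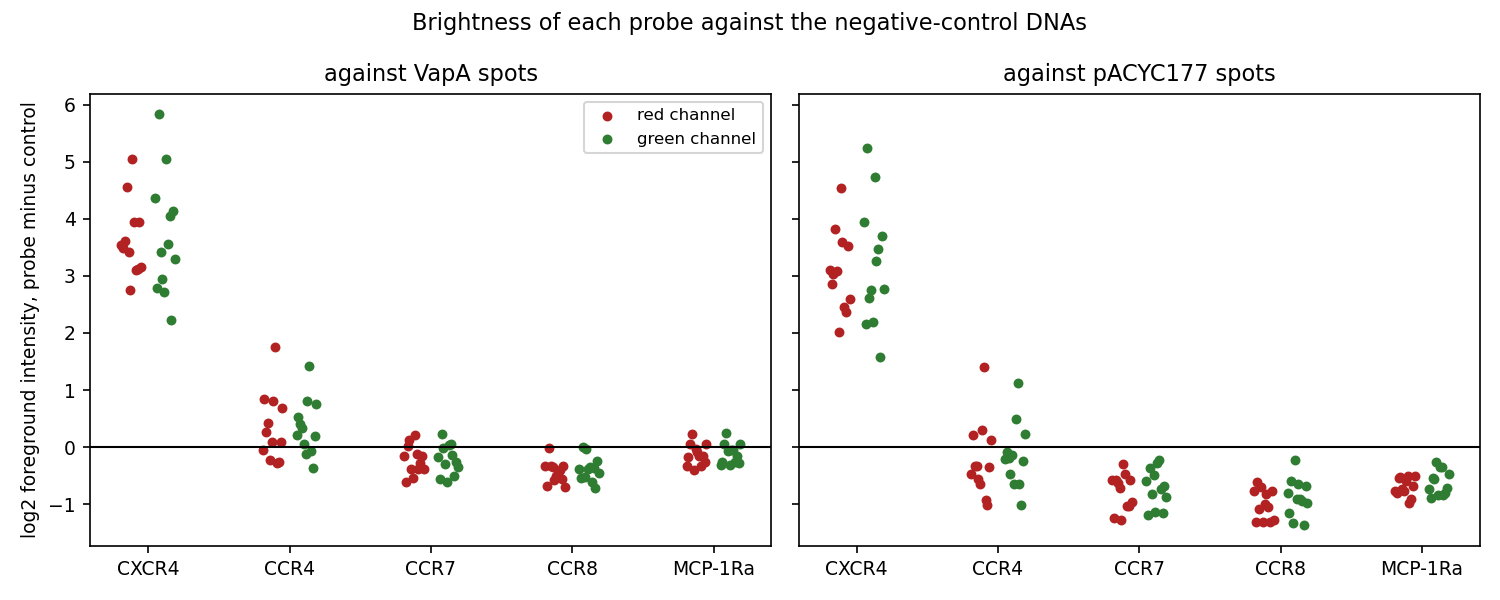
Log2 foreground intensity of each receptor probe minus that of the VapA spots (left panel) and of the pACYC177 spots (right panel), 1 point per array and colour, 24 points per probe. CXCR4 lies above both controls in all 24 channels, CCR4 lies above pACYC177 in 7, and CCR7, CCR8 and MCP-1Ra lie below pACYC177 in all 24.

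All 5 probes were nevertheless brighter than the slide surface around their spots in most channels. With detection set at 2 background SD in most of a probe's spots, CXCR4 was detected in 24 of 24 channels, CCR4 and MCP-1Ra in 21 each, and CCR7 and CCR8 in 20 each. All channels that missed this limit were on arrays A1 and B1 of 050502 vs New, with the exception of the 070701 channel of array B1 of 050502 vs 070701 for CCR8. Of the 188 gene probes, array A1 of 050502 vs New had 75 detected in red and 163 in green. Its array B1 had 89 in red and 53 in green, and the excepted channel had 151. The counts by genotype below therefore cannot be told apart from these arrays. Within 050502 vs New, CCR7 was detected in 2 of 4 channels of 050502 and in 2 of 4 channels of New. CCR4 was detected there in 2 of 4 channels of 050502 and 3 of 4 of New, and CCR8 and MCP-1Ra were each detected in 3 of 4 channels of 050502 and 2 of 4 of New.

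The surface around the spots was not even on every array. CCR4, CXCR4 and CCR7 were printed side by side in row 7 of the print block, in columns 3 to 4, 5 to 6 and 7 to 8. MCP-1Ra stood in row 8, columns 9 to 10, and CCR8 in row 8, columns 17 to 18. On array B1 of 050502 vs New the local background of CCR4 was 2.09-fold the array's median, that of CXCR4 1.90-fold, that of CCR7 1.54-fold, that of MCP-1Ra 1.49-fold and that of CCR8 0.871-fold. On array B2 of the same comparison the values were 2.39-fold for CCR4, 2.13-fold for CXCR4, 1.85-fold for CCR7, 1.54-fold for MCP-1Ra and 0.839-fold for CCR8. The background was thus raised around 4 of the 5 receptors on both arrays of that hybridised pair, and for the 3 probes of row 7 it lay between 0.837-fold and 1.10-fold on the other 10 arrays. Its part in the ratios of pair B of 050502 vs New was not tested.

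**Figure D2:**
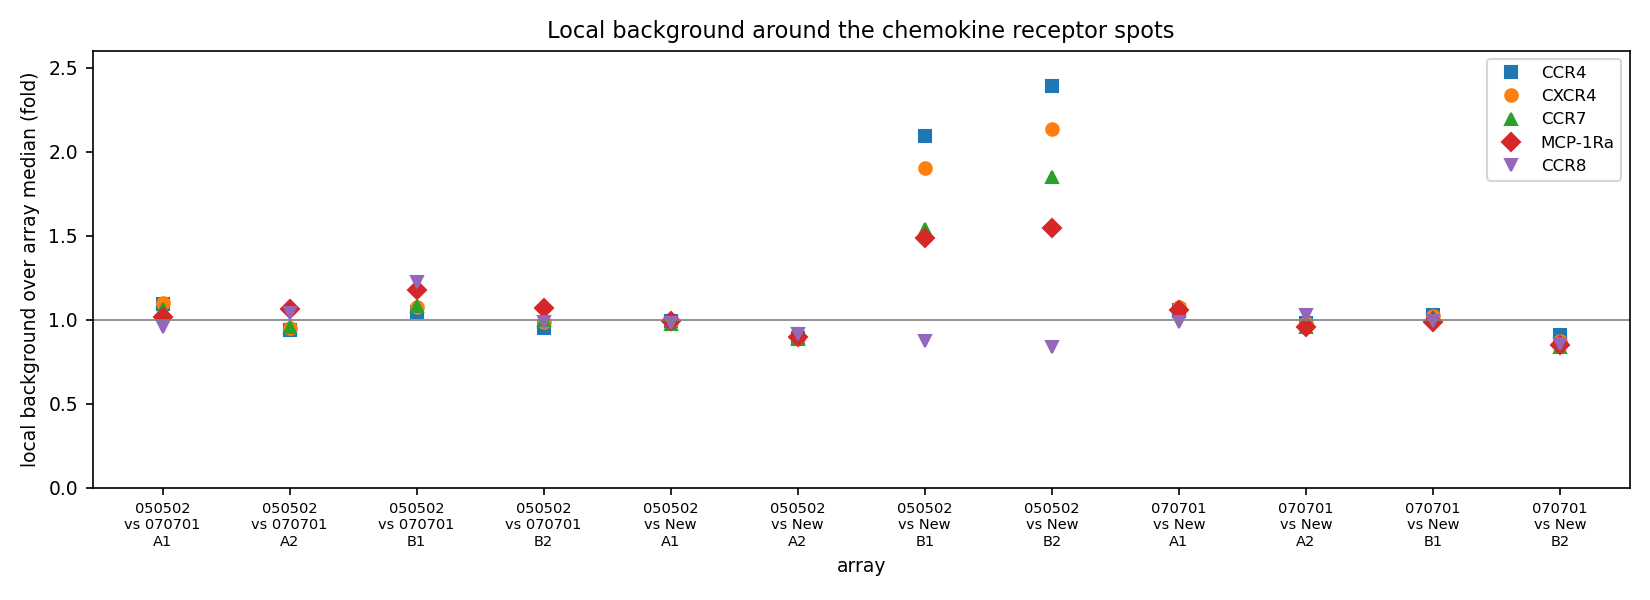
Local background around the spots of each receptor, as a fold of the array's median background, on each of the 12 arrays. Arrays B1 and B2 of 050502 vs New stand apart, with 2.09-fold and 2.39-fold for CCR4, while CCR8 stays below 1 on both.

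CXCR4 was the receptor whose 2 samples differed most within an array. In 050502 vs 070701, the 050502 sample gave 10142 and the 070701 sample 19801 intensity units on array A1, and the 050502 sample gave 9786 and the 070701 sample 18082 on array A2. On arrays B1 and B2 the order turned, with 41798 in 050502 and 7322 in 070701 on B1, and 26279 in 050502 and 11493 in 070701 on B2. The exchange of dyes did not turn it: in pair A the 070701 sample was the brighter one in either colour, and in pair B the 050502 sample was.

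After normalization, the log2 ratio of CXCR4 in 050502 over 070701 was -0.94 on A1, -0.46 on A2, 1.87 on B1 and 1.31 on B2. Arrays of pair A were all below 0 and those of pair B all above it. The mean was 0.45 (SD 1.62 between n = 2 hybridised pairs, SE 0.61, 95% interval -1.15 to 2.04, limma adjusted p = 0.772), a 1.36-fold difference with an interval from 0.451-fold to 4.12-fold. Pair A averaged -0.70 and pair B 1.59, so the difference between the hybridised pairs was larger than the mean itself.

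In 050502 over New, the CXCR4 log2 ratios were -0.003 on A1, -0.35 on A2, 1.27 on B1 and 0.71 on B2. The raw intensities were 3530 in 050502 and 4257 in New on A1, and 5811 in 050502 and 5639 in New on A2. They were 25399 in 050502 and 28780 in New on B1, and 22837 in 050502 and 13831 in New on B2. On A2 and B1 the raw order was thus the opposite of the normalized ratio, which loess sets against the other probes of the array. Pair A again lay at or below 0 and pair B above it. The mean was 0.41 (SD 0.82, n = 2, interval -1.19 to 2.00, limma adjusted p = 0.790), and 0.58 with pair A turned (adjusted p = 0.619). Ratios from the authors' deposited table, centred on each array's median, gave -0.013 for CXCR4 in this comparison, on the other side of 0.

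In 070701 over New, the CXCR4 log2 ratios were -0.44 on A1, -0.53 on A2, 0.60 on B1 and 0.05 on B2. On pair A the intensities were 10371 in 070701 and 18372 in New on A1, and 10398 in 070701 and 17214 in New on A2. On pair B they were 16398 in 070701 and 12133 in New on B1, and 13433 in 070701 and 13906 in New on B2. On B2 the raw order was the opposite of the normalized ratio. The mean of -0.08 was small beside the spread (SD 0.57, n = 2, interval -1.68 to 1.51, limma adjusted p = 0.997).

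**Figure D3:**
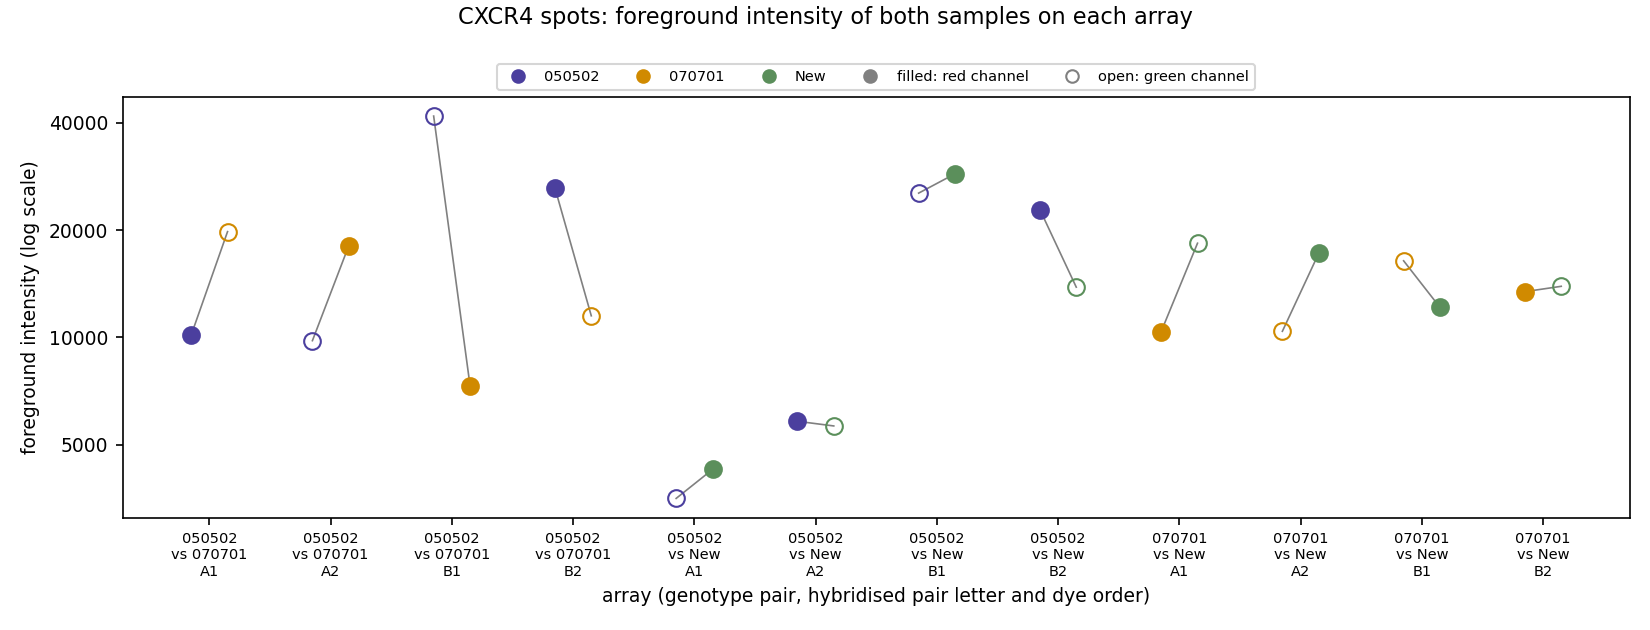
Foreground intensity of the CXCR4 spots for both samples of each of the 12 arrays, on a log axis, with the first-named genotype left of the second, colour for genotype, filled symbols for the red channel and open symbols for the green. In 050502 vs 070701 the 050502 sample is the dimmer one on A1 and A2 and the brighter one on B1 and B2.

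CXCR4 was therefore below 0 on all 6 arrays lettered A and above 0 on all 6 lettered B, a pattern picked out after its values were seen. Array A1 of 050502 vs New (-0.003) and array B2 of 070701 vs New (0.05) lay close to 0. The arrays of a dye exchange differed by a median of 0.52 for CXCR4, so the sign of those arrays is not settled. As averaged hybridised pairs, 3 of the 185 tested probes (1.62%) had all A pairs on 1 side of 0 and all B pairs on the other, CXCR4 among them. With pair A of 050502 vs New turned, 6 probes (3.24%) did so, and then CXCR4 no longer did but CCR4 did. In a limma fit with the letter as a term, the CXCR4 log2 ratio averaged 1.42 lower in A than in B pairs (means -0.45 and 0.97, adjusted p = 0.279). That is a difference between ratios, not between levels of CXCR4, and it depends on which genotype is named first. The labels do not say what the letters share beyond naming a hybridised pair. CXCR4's residual SD of 1.10 over the 6 hybridised pairs ranked 181 of 185 from the narrowest, against a median of 0.13 over all tested probes. With the pair turned it was 1.05 and ranked 185, and the ratios of letters A and B differed by -1.30 (limma adjusted p = 0.0743). The split was picked after the values were seen, so neither p-value of the letter tests it.

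CXCR4 was also split into levels of each genotype in each hybridised pair, after normalization. On the normalized log2 intensity scale, the 4 levels of 050502 were 13.28 and 14.59 (arrays shared with 070701, pairs A and B) and 13.20 and 14.51 (arrays shared with New). The 4 levels of 070701 were 13.98 and 13.00 on arrays shared with 050502 and 12.87 and 13.84 on arrays shared with New. New stayed between 13.36 and 13.52 in all 4 hybridised pairs. After this normalization, 050502 and 070701 thus held a higher and a lower level, each met on arrays of both comparisons, while New varied little as labelled. Raw CXCR4 intensities of New ran from 4257 (array A1) to 28780 (array B1), both of 050502 vs New. Median centring in place of loess gave mean CXCR4 ratios of 0.37 in 050502 over 070701, 0.08 in 050502 over New and -0.29 in 070701 over New. The loess means were 0.45, 0.41 and -0.08, so the levels rest on 1 normalization. The mean levels were 13.90 ± 0.76 in 050502, 13.42 ± 0.57 in 070701 and 13.44 ± 0.09 in New (SD, n = 4 hybridised pairs of 2 boars), as labelled. With pair A of 050502 vs New turned, they were 13.94 ± 0.71 in 050502, 13.42 ± 0.57 in 070701 and 13.40 ± 0.15 in New. The highest mean was that of 050502 in both settings, New and 070701 changed places between them, and neighbours differed by less than the larger of their SDs. Which hybridisations share a boar was not given, so these levels could not be assigned to animals.

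Several technical values stood beside the CXCR4 ratios. The 8 spots of CXCR4 varied less within an array than those of the other receptors, with a median spot SD of 0.108, against 0.174 for CCR4, 0.199 for CCR8, 0.213 for MCP-1Ra and 0.220 for CCR7. The arrays of a dye exchange differed by a median of 0.52 for CXCR4, against 0.17 over all probes, and red over green averaged -0.20. Saturated pixels were present on 2 arrays, in 1 spot of array A2 of 050502 vs 070701 (up to 37% of its pixels) and in 4 spots of array B2 (up to 12%). The other 10 arrays had none. The part of saturation in the CXCR4 ratios was not tested.

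CCR4 ratios of 050502 over 070701 were -0.44 on A1, -0.32 on A2, 0.14 on B1 and 0.19 on B2. Pair A lay below 0 and pair B above it, as for CXCR4 but with a smaller distance. The mean was -0.11 (SD 0.39, n = 2, interval -0.50 to 0.28, limma adjusted p = 0.770).

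CCR4 in 050502 over New was above 0 on all 4 arrays, at 0.17 on A1, 0.31 on A2, 0.32 on B1 and 0.45 on B2. The mean of 0.31, a 1.24-fold difference, had an interval of -0.07 to 0.70 and did not pass (SD 0.10, n = 2, adjusted p = 0.558). With pair A turned the mean was 0.07 (adjusted p = 0.881). In 070701 over New, CCR4 was at -0.22 on A1, -0.02 on A2, 0.25 on B1 and -0.06 on B2, on either side of 0, with a mean of -0.01 (SD 0.15, adjusted p = 0.997).

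CCR7 ratios of 050502 over 070701 were 0.10 on A1, -0.16 on A2, 0.16 on B1 and 0.19 on B2, with a mean of 0.07 (SD 0.15, n = 2, interval -0.24 to 0.38, limma adjusted p = 0.806). In 050502 over New they were -0.14 on A1, 0.48 on A2, -0.18 on B1 and -0.19 on B2, with a mean of -0.01 (SD 0.25, interval -0.32 to 0.30, adjusted p = 0.982), and -0.18 with pair A turned (adjusted p = 0.426). Array A2 went against its own dye exchange there. In 070701 over New, CCR7 was at -0.23 on A1, -0.23 on A2, -0.20 on B1 and 0.19 on B2, so that 3 of 4 arrays were below 0 and the mean was -0.12 (SD 0.16, interval -0.43 to 0.19, adjusted p = 0.915).

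CCR8 had the narrowest spread of the 5 as labelled, with a residual SD of 0.03 that ranked 3 of 185. With pair A of 050502 vs New turned the SD was 0.16, rank 113, and CCR7 was narrower at 0.13. In 050502 over New it was above 0 on all 4 arrays, at 0.22 on A1, 0.11 on A2, 0.31 on B1 and 0.12 on B2. The mean of 0.19, a 1.14-fold difference, had an unadjusted p of 0.0237 in limma and an interval of 0.04 to 0.34, and it did not pass after adjustment (SD 0.03, n = 2, adjusted p = 0.558). With pair A turned it was 0.02 (adjusted p = 0.904). The arrays of a dye exchange differed by a median of 0.20 for CCR8.

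In 050502 over 070701, CCR8 was at 0.15 on A1, -0.04 on A2, -0.01 on B1 and 0.22 on B2, with a mean of 0.08 (SD 0.04, n = 2, interval -0.07 to 0.23, limma adjusted p = 0.699). In 070701 over New it was at 0.10 on A1, -0.11 on A2, 0.09 on B1 and -0.15 on B2, with a mean of -0.02 (SD 0.01, interval -0.17 to 0.13, adjusted p = 0.997). In both comparisons the arrays of each dye exchange lay on opposite sides of 0.

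MCP-1Ra in 050502 over 070701 was at 0.05 on A1, -0.22 on A2, -0.22 on B1 and 0.02 on B2, with a mean of -0.09 (SD 0.01, n = 2, interval -0.36 to 0.18, limma adjusted p = 0.757). In 050502 over New it was at 0.25 on A1, 0.55 on A2, 0.16 on B1 and -0.11 on B2, above 0 on 3 of 4 arrays, with a mean of 0.21 (SD 0.26, interval -0.06 to 0.48, adjusted p = 0.578). Turning pair A gave -0.19 (adjusted p = 0.496), so the sign of MCP-1Ra in this comparison rests on the labelled direction of that pair. In 070701 over New it was at 0.04 on A1, 0.17 on A2, -0.07 on B1 and 0.11 on B2, with a mean of 0.06 (SD 0.06, interval -0.21 to 0.33, adjusted p = 0.986).

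**Figure D4:**
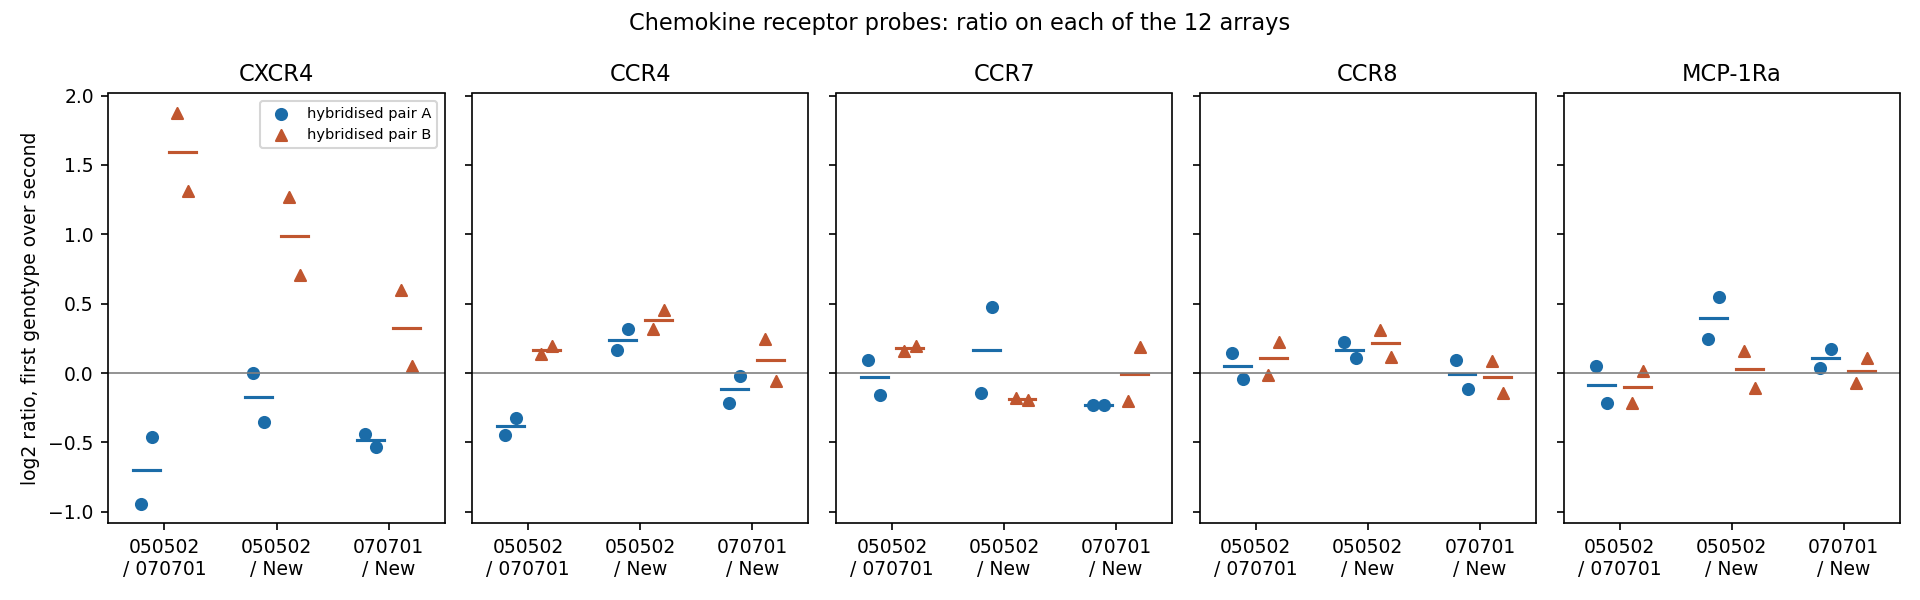
Log2 ratio of the first-named over the second-named genotype for the 5 receptor probes on each of the 12 arrays, with circles for hybridised pair A, triangles for pair B and bars for the mean of the arrays of a dye exchange. CXCR4 spans -0.94 to 1.87 with A below B in every comparison, and the other 4 receptors stay between -0.44 and 0.55.

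Counted together, 0 of 5 receptors passed at an adjusted p under 0.05 in 050502 vs 070701, where 1.08% of all tested probes did (2 of 185 in limma). In 050502 vs New 0 of 5 passed, where 0.00% of all probes did, and in 070701 vs New 0 of 5, where 1.08% did. At an unadjusted p under 0.05 in limma the receptors numbered 0, 1 and 0 in these comparisons, against 8.11%, 8.11% and 7.57% of all probes. CCR8 in 050502 vs New was that 1 receptor.

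All 4 arrays had the same sign for 0 of 5 receptors in 050502 vs 070701 (29.2% of all probes), for 2 of 5 in 050502 vs New (9.19%) and for 0 of 5 in 070701 vs New (29.7%). CCR4 and CCR8 were the 2, both above 0, as were 8 of the 185 probes (4.32%) in that comparison. With pair A turned, both had arrays on either side of 0. The median ratio of the 5 receptors was 0.07 in 050502 over 070701, 0.21 in 050502 over New and -0.02 in 070701 over New, beside medians of -0.004, 0.002 and 0.006 over all tested probes. Turning pair A gave a median of 0.02 in 050502 over New, the same as the 0.02 of all probes. Receptors with a ratio above 0 numbered 3, 4 and 1 of 5 in these comparisons, where 48.1%, 51.4% and 53.0% of all probes had one. Once pair A was turned, 3 of 5 receptors and 54.1% of all probes were above 0 in 050502 over New. The comparisons share boars, so their values are not independent of each other.

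**Figure D5:**
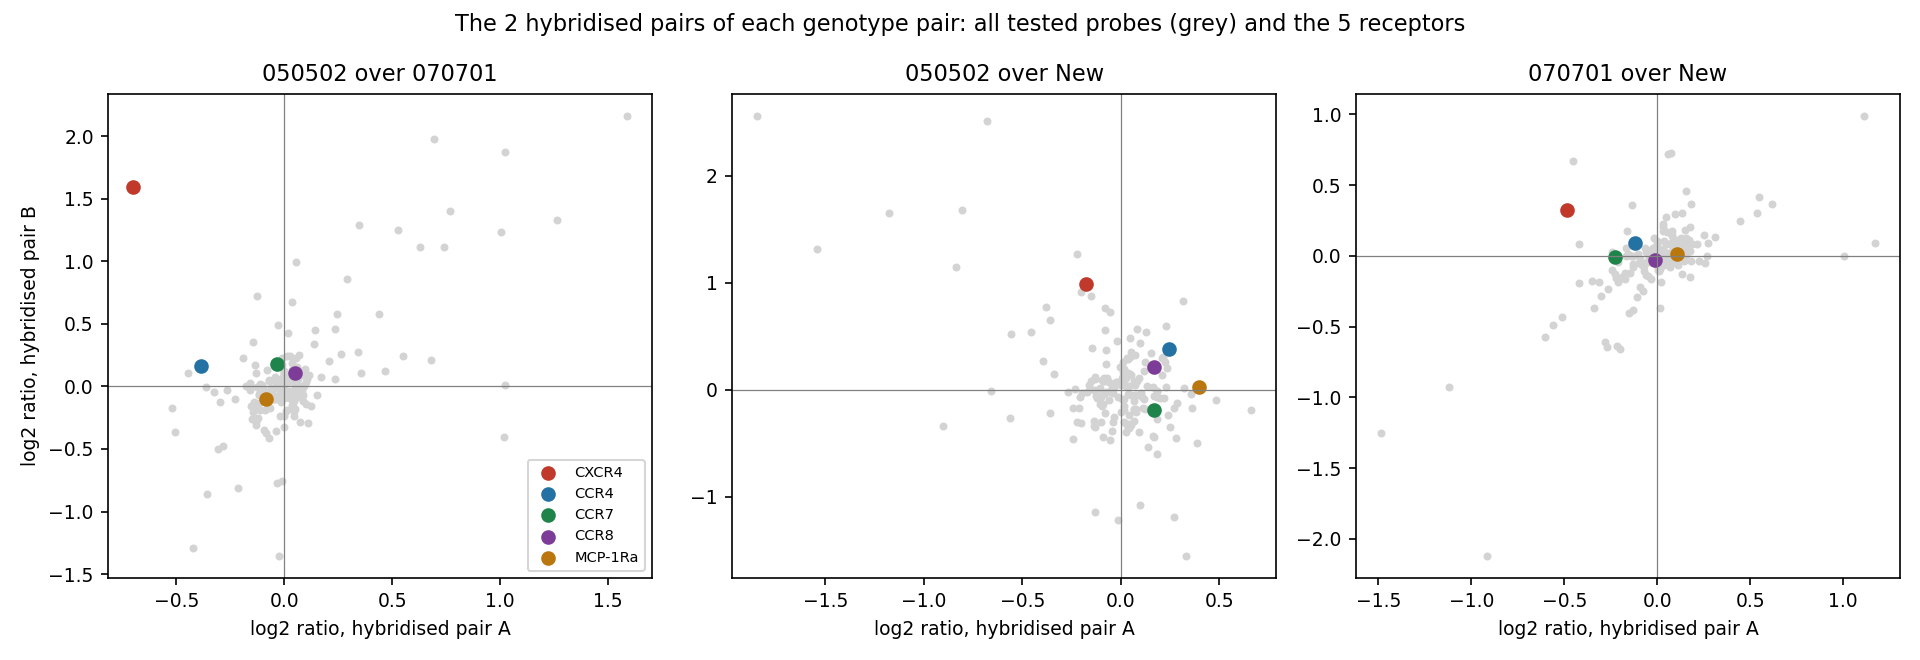
Averaged log2 ratio of hybridised pair B (vertical axis) against pair A (horizontal axis) in each genotype pair, with grey points for all tested probes and coloured points for the 5 receptors. CXCR4 lies in the upper left quadrant in all 3 panels, at -0.70 and 1.59 in 050502 over 070701, and the other receptors lie nearer the origin.

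Because the genotypes were compared in a loop, 050502 over New could also be read through 070701, as the sum of the other comparisons' mean ratios. For CXCR4 the direct mean was 0.41 and the value through 070701 was 0.37. CCR7 gave -0.01 and -0.04. CCR4 gave 0.31 directly and -0.12 through 070701, CCR8 0.19 and 0.06, and MCP-1Ra 0.21 and -0.03. The direct means with pair A turned were 0.58 for CXCR4, -0.18 for CCR7, 0.07 for CCR4, 0.02 for CCR8 and -0.19 for MCP-1Ra. As labelled, CCR4 and MCP-1Ra were thus on the other side of 0 by the indirect route. When turned, MCP-1Ra was on the same side and CCR4 was not. No test of these differences was made.

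Levels of the dimmer receptors, on the normalized log2 intensity scale and as labelled, overlapped between genotypes. CCR4 averaged 9.83 ± 0.61 in 050502, 9.53 ± 0.56 in 070701 and 9.59 ± 0.61 in New (SD, n = 4 hybridised pairs here and below). CCR7 averaged 8.86 ± 0.19 in 050502, 8.76 ± 0.10 in 070701 and 8.81 ± 0.26 in New. Both had the order 050502, New, 070701 as labelled, and CCR8 followed it too, at 8.74 ± 0.19 in 050502, 8.48 ± 0.04 in 070701 and 8.59 ± 0.14 in New. In none of these 3 were neighbours in the order apart by more than the larger of their SDs. MCP-1Ra averaged 8.97 ± 0.18 in 050502, 8.96 ± 0.08 in 070701 and 8.87 ± 0.06 in New, in the order 050502, 070701, New. Its means in 070701 and New were apart by slightly more than the larger of their SDs. The lowest and highest levels of each neighbour still overlapped (8.80 to 9.21 in 050502, 8.88 to 9.06 in 070701 and 8.82 to 8.94 in New). With pair A of 050502 vs New turned, CCR4 and CCR8 kept their order. CCR7 then had the order New, 050502, 070701 (8.82 in 050502, 8.76 in 070701 and 8.85 in New), and MCP-1Ra the order New, 070701, 050502 (8.87 in 050502, 8.96 in 070701 and 8.97 in New), so these orders are not settled. Levels pool arrays of different brightness, so the within-array ratios above are the closer comparison.

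One scan day held 2 genotype pairs, 050502 vs 070701 pair A and 070701 vs New pair B. Within that day CXCR4 was at -0.70 in 050502 over 070701 and at 0.32 in 070701 over New, and CCR4 at -0.38 and 0.09. Every other scan day held a single hybridised pair, so on those days scan date cannot be told apart from hybridised pair. With scan date as a random block, the means were 0.37, 0.41 and 0.09 for CXCR4 in 050502 over 070701, 050502 over New and 070701 over New, and 0 of 5 receptors passed in any of them. That block rests on the shared day alone.

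The probes most like each receptor across the 6 averaged ratios were named as a description, with no test, since the values share arrays and boars. They were picked as the highest r among all other tested probes on only 6 values, so a high r is no evidence of a link. Turning the pair changes the sign of a single value for every probe, so a neighbour that stays is not independent support. CXCR4 ran closest to STAT4 (r = 0.93), IL8R (0.92) and IL2Rg (0.91), and these were its closest with pair A of 050502 vs New turned too. MCP-1Ra ran closest to NFKB2 (0.96), TCRb (0.93) and MSP (0.92), again in both settings. CCR4 ran closest to B2 (0.97), IFNrf8 (0.96) and IL10Ra (0.92), of which only B2 stayed with the pair turned. CCR7 was nearest to FcRgII (0.91), TCRe (0.90) and TGFb-1 (0.89), with TCRe replaced by JunB (0.93) when turned. CCR8 was nearest to G-CSF (0.93), IL13 (0.92) and IL12-35 (0.92) as labelled, and to NOD1 (0.97), IL12Rb2 (0.94) and IL17 (0.93) when turned, so none of its neighbours stayed. Among the receptors themselves, r ranged from -0.35 (CXCR4 with MCP-1Ra) to 0.70 (CXCR4 with CCR4). With the pair turned it ranged from -0.08 (CCR7 with MCP-1Ra) to 0.80 (CXCR4 with CCR4). CXCR4 was printed next to both CCR4 and CCR7, and its r with CCR7 was 0.30 as labelled and 0.52 turned.

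The 5 receptors were set beside 4 other chemokine receptor probes (CCR1, CCR3, CCR9 and IL8R) and 10 chemokine ligand probes. None of these 4 receptors was brighter than both control DNAs, and 2 of the 10 ligands were. None of these 4 receptors or 10 ligands passed in any of the 3 comparisons in limma. The 4 receptors had median ratios of 0.002 in 050502 over 070701, 0.11 in 050502 over New and -0.03 in 070701 over New. The ligands had medians of 0.08, 0.20 and 0.06. The medians in 050502 over New with pair A turned were 0.09 for the 4 receptors and 0.26 for the ligands, again with 0 passing in limma.

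SDF-1, the ligand of CXCR4, was at -0.15 in 050502 over 070701 (SD 0.03, n = 2, limma adjusted p = 0.613), -0.04 in 050502 over New (SD 0.02, adjusted p = 0.795) and 0.11 in 070701 over New (SD 0.04, adjusted p = 0.800). Its pairs A and B lay close together in each comparison, unlike those of its receptor. It was above VapA in 22 of 24 channels and above pACYC177 in 2. MCP-1, the monocyte attractant that MCP-1Ra is named after, was at -0.22, -0.05 and 0.004 in the same order, with adjusted p of 0.699 or more. Its relatives MCP-2 and MCP3 had ratios of 0.06 and -0.06 in 050502 over 070701, 0.33 and 0.33 in 050502 over New, and 0.20 and 0.02 in 070701 over New. In 050502 over New the SD between hybridised pairs was 0.42 for MCP-1, 0.29 for MCP-2 and 0.55 for MCP3. MCP-1, MCP-2 and MCP3 averaged 0.614-fold, 0.571-fold and 0.583-fold pACYC177, above it in 0, 0 and 1 of 24 channels. Turned, the ratios in 050502 over New were 0.02 for SDF-1, -0.30 for MCP-1, 0.21 for MCP-2 and 0.39 for MCP3, with adjusted p of 0.209 or more.

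Marker lists of the cells in the preparation were set beside the receptors. Of these, 3 of 14 T cell, 1 of 6 B cell and 2 of 4 monocyte and dendritic cell probes were brighter than both negative-control DNAs. The share over the array was 48 of 185 tested probes. Of all tested probes, 48.1% had ratios above 0 in 050502 over 070701, 51.4% in 050502 over New (54.1% with pair A turned) and 53.0% in 070701 over New. In 050502 over 070701, 13 of 14 T cell probes had ratios below 0 (median -0.14) and 4 of 4 monocyte and dendritic cell probes had ratios above 0 (median 0.33), with 0 passing in limma in either list. In 050502 over New, 10 of 14 T cell probes were below 0 (median -0.07), 5 of 5 B cell probes were below 0 (median -0.62) and 2 of 4 monocyte and dendritic cell probes were above 0 (median 0.02). With pair A turned, 8 of 14 T cell probes were below 0 (median -0.12), 4 of 5 B cell probes below 0 (median -0.39) and 3 of 4 monocyte and dendritic cell probes above 0 (median 0.34), of which 1 passed. In 070701 over New, 10 of 14 T cell probes were above 0 (median 0.02), 5 of 5 B cell probes below 0 (median -0.26) and 2 of 4 monocyte and dendritic cell probes above 0 (median 0.06). The part of cell composition in the receptor ratios was not tested.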

How the data were processed

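The authors deposited intensity values per spot without normalization, measured with GenePix Pro 6.0.1.25 on a GenePix 4000B scanner, per the file headers. The percent of saturated pixels per spot was deposited from the same software. The authors' value table gave log2 ratios (red over green) that matched the background-subtracted scanner values within 0.001, uncentred and with no turn for the dyes, and was used as an alternative.

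Foreground medians were corrected by normexp (offset 50), and each array's ratios by a global loess that ignored controls and spots flagged not found. The spots of each probe were averaged, signs were set to the first-named over the second-named genotype, and each dye exchange became 1 value, which left 6. Tested probes exceeded background by 2 background SD in most of their spots, in at least 1 channel, on at least 6 arrays. The fit used limma 3.58.1 (R 4.3.3), lmFit and eBayes, with a coefficient for each genotype pair, leaving 3 residual degrees of freedom. Two-sided p-values were adjusted over 185 probes (Benjamini-Hochberg, threshold 0.05). They measure the spread between hybridised pairs. Which hybridisations share a boar is not in the labels, so animals were not modelled. Genotype levels came from the same loess ratios after quantile scaling of average intensities between arrays. Brightness summaries are geometric means, and intensities of single arrays are arithmetic means over spots. The limma fit was tested on simulated data with independent hybridised pairs. The real pairs share boars, so that test does not show that the p-values hold for this design.

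The probes, lists and tests were chosen with earlier results of these data known. All 5 receptors, both negative controls, the 3 probes most correlated with each receptor, and ligands of the receptors were named. Of the 5 names, 4 stood as symbols in the RefSeq table of assembly Sscrofa11.1. Alternatives varied the normalization, background correction, filter, source, dye exchange, spot summary, scan date, pairing, loop constraint and the direction of a hybridised pair. Probe sequences were not analysed here.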

Additional observations from a re-analysis of the deposited data

Results flagged for a closer look

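Of 15 sets of 4 arrays (5 receptors in 3 comparisons), 2 held an array far from the other 3, both for CCR7. Such a rule marks about 1 set in 20 by chance. Array A2 of 050502 vs New gave a log2 ratio of 0.48, while A1, B1 and B2 lay between -0.19 and -0.14. Array B2 of 070701 vs New gave 0.19, while A1, A2 and B1 lay between -0.23 and -0.20. CCR7 was not above the pACYC177 spots on either array, and both were second arrays of a dye exchange whose first array lay on the other side of 0.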

How the results depend on the processing

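Over 22 alternative settings, 306 receptor ratios were recomputed. Of these, 278 kept their direction, 28 changed sign, and 0 passed at an adjusted p of 0.05 in limma. The 278 include ratios that a setting could not move, such as those of a comparison when a pair of another comparison was left out. The share that kept its direction is therefore no measure of robustness. The cause of the sign changes was not tested. With only bright probes, or only probes detected on all 12 arrays, CXCR4 was the 1 receptor tested. The count of receptors brighter than both control DNAs was 1 in every alternative run for it. Leaving out a hybridised pair gave, in 050502 over 070701, ranges of -0.70 to 1.59 for CXCR4, -0.38 to 0.17 for CCR4, -0.032 to 0.18 for CCR7 and 0.052 to 0.11 for CCR8. In 050502 over New it gave -0.18 to 0.99 for CXCR4, -0.19 to 0.17 for CCR7 and 0.026 to 0.40 for MCP-1Ra, and in 070701 over New -0.49 to 0.32 for CXCR4, -0.12 to 0.093 for CCR4, -0.23 to -0.0051 for CCR7, -0.028 to -0.0095 for CCR8 and 0.016 to 0.11 for MCP-1Ra. The remaining ranges stayed within 1.5 times the mean of both pairs. The count of all probes passing then ranged from 0 to 3 in 050502 vs 070701, 0 to 2 in 050502 vs New and 0 to 3 in 070701 vs New. Without background correction CCR7 in 050502 over New was at 0.015. The deposited values, centred, gave -0.013 for CXCR4 and 0.0033 for CCR7 in 050502 over New and 0.0025 for CCR4 in 070701 over New, with 0 probes passing in 050502 vs 070701 and 1 in 070701 vs New. Left uncentred, they moved the median of all probes to 0.10, 0.12 and 0.15 in the 3 comparisons. They then gave 0.035 for MCP-1Ra in 050502 over 070701, 0.10 for CCR7 in 050502 over New, and 0.13 for CCR4, 0.048 for CCR7 and 0.12 for CCR8 in 070701 over New, with 7, 1 and 4 probes passing. The first arrays of the dye exchanges gave 0.078 for CXCR4, 0.015 for CCR4, 0.093 for CCR8 and -0.018 for MCP-1Ra in 070701 over New, and the second arrays 0.14 for CCR7 in 050502 over New. With either array alone 1 probe passed in each comparison with 070701. Median centring left 1 probe passing in 050502 vs 070701. The median of spots gave 0.017 for CCR8 in 070701 over New. Scan date as a random block gave 0.086 for CXCR4 and 0.028 for CCR4 in 070701 over New, with 6 probes passing in 050502 vs 070701 and 9 in 070701 vs New. That block rests on the only scan day that held more than a single hybridised pair. The loop constraint gave 0.036 for CCR4 in 050502 over 070701, and 0.13 for CCR4 and 0.025 for CCR8 in 070701 over New, with 5 probes passing there. With pair A of 050502 vs New turned, MCP-1Ra was at -0.19 there, and 4 probes passed in 050502 vs 070701 and 4 in 050502 vs New. The labels do not say what the letters A and B share. Deviations of same-lettered pairs from their group means correlated across probes with r of 0.53, 0.62 and 0.43 as labelled. These r depend on which genotype is named first, and 0.53 and 0.43 also on the labelled direction of pair A of 050502 vs New. The comparisons share boars too, so the r do not show what the letters share. With the letter as a replicate block 2, 0 and 3 probes passed in the 3 comparisons, with 0 receptors among them. Signals near those of the negative-control DNAs limit the ratios of CCR4, CCR7, CCR8 and MCP-1Ra.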
